A study of Homo sapiens with 16 samples.

Results

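KMS27 clone C5 is a venetoclax-resistant derivative of the human multiple myeloma cell line KMS27, and its RNA was set against that of the parental line. The comparison was defined by the sample labels alone: 2 libraries labelled clone C5 and 2 labelled parental (wild type), 4 of the 16 libraries of the series. The study asked whether the resistance of such clones goes with genomic or with transcriptional change. KMS27 and a second line, KMS12PE, both with the t(11;14) translocation, were exposed to a high dose of venetoclax, drug-tolerant expanded persister (DTEP) clones were grown from single cells, and poly(A) RNA of parental lines and clones was sequenced. The 8 KMS27 libraries hold 4 populations of 2 libraries each: parental cells described as sensitive, and the resistant clones B5, C1 and C5, which were kept in 100 nM venetoclax. Drug exposure of the parental cells at harvest is not given in the sources used here. So selection, cloning and drug present at harvest cannot be told apart in any difference between C5 and parental. C5 is 1 clone from 1 cell, and its 2 libraries do not show how clones vary. Nothing in the labels says that the libraries of a population came from separate cultures, so p-values measure only the spread between libraries, which may be technical.

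Venetoclax is a BH3 mimetic: it occupies the groove of BCL2, the guardian protein of the mitochondrial outer membrane, and frees the BH3-only activators that switch on the pore formers BAX and BAK1. MCL1 and BCL-XL (gene BCL2L1) are sister guardians that bind the same activators and are not its main target. Myeloma cells are malignant plasma cells, which secrete antibody and so depend on a large endoplasmic reticulum (ER), on the unfolded protein response that maintains it, and on a gene programme led by IRF4, PRDM1 and XBP1. Plasma cells normally switch off much of the B cell programme, including CIITA and the MHC class II genes it controls.

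Levels are given in CPM, counts scaled for library size and composition; they are not per length and are not compared between genes. Total counts were 28166303 and 24154558 in C5, 26653196 and 26632039 in parental, and 20257318 to 52615971 over the 8 libraries. Of 14560 genes listed, 14088 were tested. Of 30 plasma cell genes 26 are in the table, and their summed level was 16700 to 19010 CPM in parental and 11020 to 11440 CPM in C5. The table holds 5 of 18 T and natural killer cell markers, with a summed level of 85.7 to 101.0 CPM in parental and 66.1 to 70.4 CPM in C5, mostly TRBC2. It holds 1 of 14 myeloid and erythroid markers, CD68, at no more than 0.798 CPM in C5, and 2 of 13 stromal and epithelial markers, with a summed level of at most 3.63 CPM in C5.

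C5 differed from parental at 2772 of 14088 genes, 19.7% of those tested (edgeR quasi-likelihood test on counts, Benjamini-Hochberg adjusted p under 0.05): 1464 genes were higher (10.4%) and 1308 lower (9.28%). Of the higher genes 471 differed by at least 2-fold, and of the lower 518, which is 3.34% and 3.68% of all genes tested. The MHC class II genes and CIITA rose, BCL2L11 rose, and CD38, 14 of 33 immunoglobulin genes and 36 of 48 ER folding genes fell. Without TMM scaling the split moved to 1714 higher and 987 lower, so that 63.5% of the called genes were higher rather than 52.8%. With each library left out in turn, fewer genes passed: 578 higher and 572 lower without parental library 1, 618 and 602 without parental library 2, 568 and 457 without C5 library 1, and 541 and 441 without C5 library 2. Of 121 calls named in the text against parental, 77 held with any 1 of the 4 libraries left out, and 44 were lost without at least 1 of them. The lost calls had adjusted p-values of 0.00306 or more; only H1F0, CPEB2, MYC and DUSP6 held above that value.

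**Figure D1:**
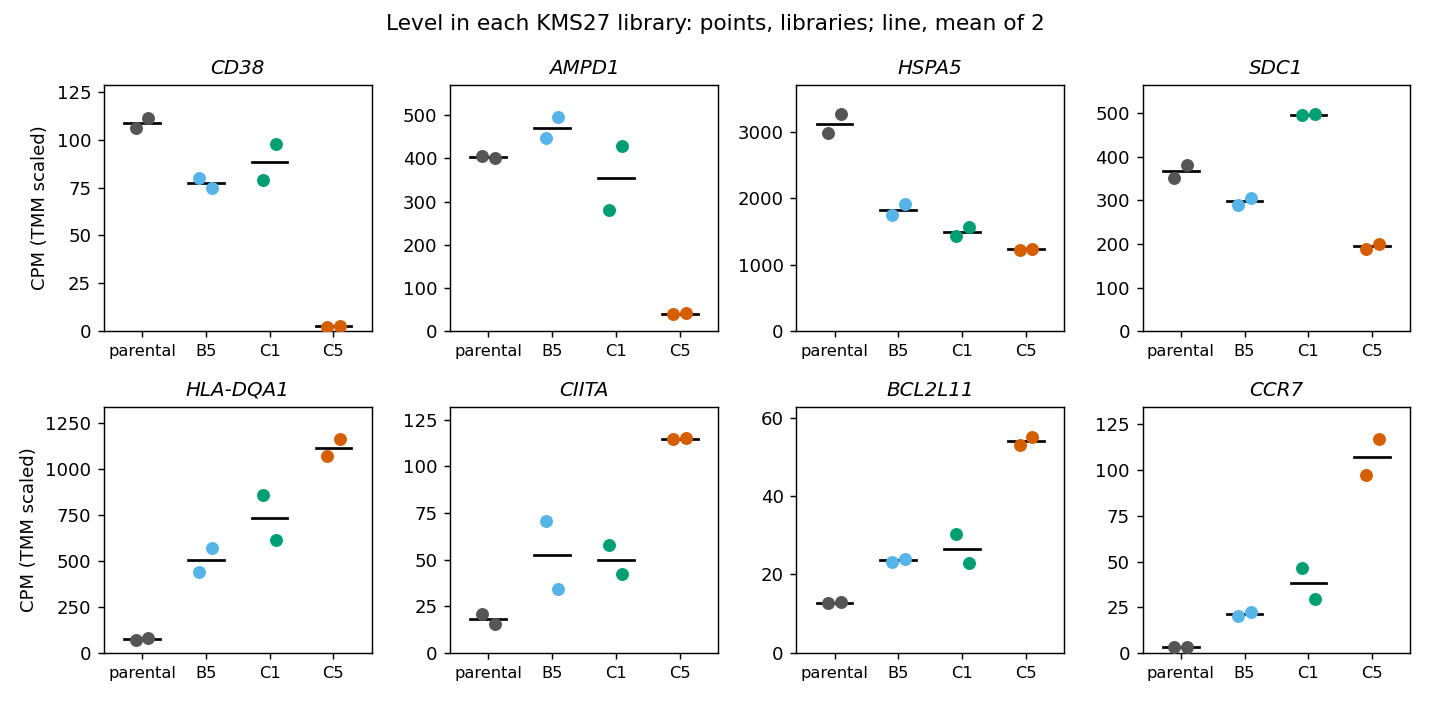
Level of 8 genes in CPM (y axis, each from 0) in the 8 KMS27 libraries; points are libraries, grouped on the x axis as parental cells and clones B5, C1 and C5, and the line is the mean of the 2. CD38 and AMPD1 are near the bottom of their axes in C5 alone, while CIITA, BCL2L11 and CCR7 are highest in both C5 libraries.

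CD38, an ectoenzyme of the plasma cell surface that is the target of the antibody daratumumab, had the smallest adjusted p of all genes tested. CD38 (chr4:15778275-15853230, hg38, plus strand) stood at 106 and 111 CPM in the parental libraries and 2.36 and 2.71 CPM in C5. All 4 libraries of clones B5 and C1 held CD38 at 74.9 to 97.9 CPM, so both C5 libraries lay far below every other KMS27 library. The log2 fold change was -5.42 ± 0.16, adjusted p = 1.19e-06 against parental (mean ± standard error, 2 libraries against 2, edgeR as above), a 42.9-fold fall, and -5.03 ± 0.15, adjusted p = 1.5e-06 against the mean of clones B5 and C1. In a bulk library, fewer cells with a transcript and less transcript per cell cannot be told apart, for CD38 and for every gene below.

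Genes within 1 Mb of CD38 moved in both directions. FBXL5, a ubiquitin ligase subunit that senses iron, begins upstream of CD38 and stood at 27.3 and 32.2 CPM in parental and 28.7 and 23.9 CPM in C5 (log2 -0.18 ± 0.14, adjusted p = 0.442). TAPT1, downstream of CD38, fell slightly (log2 -0.36 ± 0.11, adjusted p = 0.0471), though not without TMM scaling (adjusted p = 0.145). CPEB2, a translational regulator upstream of CD38, rose from 7.18 and 5.50 to 22.5 and 20.5 CPM (log2 1.76 ± 0.28, adjusted p = 0.00314), and the long noncoding RNA LINC00504 rose from 0.218 and 0.0390 to 2.70 and 4.87 CPM (log2 4.81 ± 0.64, adjusted p = 0.00121). LDB2, a LIM domain cofactor, fell from 16.9 and 15.7 to 5.22 and 3.59 CPM (log2 -1.88 ± 0.28, adjusted p = 0.00211). CPEB2, LINC00504 and LDB2 also differed between C5 and the other clones, at log2 1.30 ± 0.23, adjusted p = 0.017, 4.36 ± 0.48, adjusted p = 0.00204 and -1.43 ± 0.25, adjusted p = 0.0174. PROM1, also called CD133, fell at low level, from 2.76 and 1.68 to 0.472 and 0.279 CPM (log2 -2.53 ± 0.76, adjusted p = 0.046), but did not pass without TMM scaling (adjusted p = 0.0782) or with limma (adjusted p = 0.0851). Its difference from clones B5 and C1 was log2 0.71 ± 0.76, adjusted p = 0.647. FAM200B and TAPT1-AS1 did not pass the test (log2 -0.05 and 0.77), the latter antisense and overlapping TAPT1, and the strand setting of the counting is not known.

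AMPD1, the AMP deaminase of the purine nucleotide cycle, followed the same pattern. It stood at 406 and 402 CPM in parental, 447 and 495 in B5, 282 and 429 in C1 and 39.3 and 41.7 in C5. Every other library was above 281 CPM and both C5 libraries were below 42 CPM. The log2 fold change of AMPD1 (chr1:114673090-114695618, minus strand) was -3.32 ± 0.20, adjusted p = 1.88e-05 against parental and -3.34 ± 0.19, adjusted p = 6.35e-05 against the other clones.

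Among 26 tested plasma cell identity genes, 14 fell and none rose in C5, with a median log2 fold change of -0.45 against -0.01 over all genes. Background rates were 9.28% lower and 10.4% higher. The list shares DERL3, SEC11C, SSR4 and XBP1 with the ER list and JCHAIN with the immunoglobulin list, so the 3 counts are not separate. ITGA4, the integrin alpha 4 chain that holds plasma cells to marrow stroma, fell from 206 and 195 to 52.6 and 44.5 CPM (log2 -2.04 ± 0.18, adjusted p = 0.000135). SDC1, which encodes the plasma cell marker CD138, fell from 353 and 381 to 189.6 and 201 CPM (log2 -0.91 ± 0.12, adjusted p = 0.000931). BHLHA15, or MIST1, a transcription factor of secretory cells, fell from 11.97 and 12.3 to 4.04 and 3.67 CPM (log2 -1.65 ± 0.17, adjusted p = 0.000311). MZB1, an ER cochaperone of immunoglobulin assembly, fell from 266 and 273 to 111 and 111 CPM (log2 -1.27 ± 0.13, adjusted p = 0.000311). TXNDC11, a thioredoxin domain protein of the ER, fell by 1.49 on the log2 scale (adjusted p = 0.00014).

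The 3 transcription factors that lead the plasma cell programme were IRF4, PRDM1 and XBP1. IRF4 stood at 1825 and 1770.4 CPM in parental and 1509 and 1454 CPM in C5 (log2 -0.28 ± 0.16, adjusted p = 0.262). PRDM1, which encodes BLIMP1, was 275 and 261 CPM in parental and 209 and 205 CPM in C5, a small fall (log2 -0.37 ± 0.11, adjusted p = 0.0457), and XBP1, which drives ER expansion, fell with an adjusted p just under the threshold (log2 -0.54 ± 0.17, adjusted p = 0.0499). Neither is firm: PRDM1 did not pass without TMM scaling (adjusted p = 0.106) nor XBP1 with limma (adjusted p = 0.0513). The 12 plasma cell genes that did not pass include POU2AF1 at log2 0.13, SLAMF7 at -0.19 and CD28 at 0.05. Against clones B5 and C1, 9 of the 26 were lower in C5 and none higher, where 2.09% of all tested genes were lower: besides CD38 and ITGA4 these included SDC1 (log2 -0.98 ± 0.10, adjusted p = 0.00185), PRDM1 (log2 -0.51 ± 0.10, adjusted p = 0.0236) and TNFRSF17 (log2 -0.68 ± 0.13, adjusted p = 0.0249). PRDM1 did not pass there without TMM scaling (adjusted p = 0.0679) or with the 6 clone libraries alone (adjusted p = 0.0555). Without 1 library the count lower than parental was 9 without either parental library, 8 without either C5 library; the count lower than B5 and C1 was 5 without either C1 library, 15 without B5 library 1, and 2 and 1 without C5 library 1 and 2.

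Immunoglobulin genes were lower as well: 14 of 33 tested were lower and 3 higher, with a median log2 fold change of -1.20. The shares over all genes were 9.28% lower and 10.4% higher. Immunoglobulin genes and JCHAIN together took 4.60% and 5.04% of the counts in the parental libraries and 2.21% and 2.42% in C5. The heavy chain constant gene IGHG1 was 1251 and 1358 CPM in parental and 555 and 606 CPM in C5 (log2 -1.17 ± 0.14, adjusted p = 0.000656). The kappa constant gene IGKC fell from 25971 and 30291 to 12492 and 14153 CPM (log2 -1.08 ± 0.25, adjusted p = 0.0156), and JCHAIN, which joins polymeric antibody, from 4994 and 6489 to 1840.1 and 1939.9 CPM (log2 -1.60 ± 0.27, adjusted p = 0.00361). Both C5 libraries were below both parental libraries in each, as they were at 32.2% of all genes tested. IGKC did not pass with limma (adjusted p = 0.149). The variable segment IGHV3-48 fell from 288 and 321 to 73.4 and 84.7 CPM (log2 -1.95 ± 0.15, adjusted p = 7.54e-05). The 3 that rose were the low-level IGKV3D-7, IGKV3OR2-268 and IGLC2; segments of this family are near-identical copies, and counting can split reads between them. The count of lower immunoglobulin genes was 8 without either parental library, 6 without C5 library 1 and 7 without C5 library 2.

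ER folding and unfolded protein response genes were lower across most of the list. Of 48 genes, 36 were lower and none higher, 46 of the 48 log2 fold changes were below 0, and the median was -0.78. Over all genes 9.28% were lower and 10.4% higher. As a share of all counts the list took 3.01% and 2.97% in the parental libraries and 1.82% and 1.83% in C5. Promoters of such genes can carry the ER stress element, through which NF-Y and ATF6 act on chaperone genes. The element, CCAAT and CCACG with 9 bases of any kind between them, searched on both strands, was found in RefSeq promoters (GRCh38.p14, 250 bases before to 50 after the start site) of 8 of the 43 genes that had an entry, and in 0.0769% of all 35116 promoters. Of these 8 genes 7 fell in C5, all but CANX. Their matches are shown with up to 12 bases on each side, 5′ to 3′ on the gene's strand, with the element in capitals; a match on the opposite strand reads as its reverse complement.
HSPA5, chr9:125241379-125241421, - strand: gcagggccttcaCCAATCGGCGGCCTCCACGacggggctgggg
HSP90B1, chr12:103930204-103930246, + strand: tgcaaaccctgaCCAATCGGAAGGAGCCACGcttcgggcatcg
HSP90B1, chr12:103930309-103930351, + strand: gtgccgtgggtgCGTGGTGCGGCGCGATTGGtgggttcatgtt
CALR, chr19:12938372-12938414, + strand: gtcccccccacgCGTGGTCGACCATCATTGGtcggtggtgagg
PDIA6, chr2:10812841-10812883, - strand: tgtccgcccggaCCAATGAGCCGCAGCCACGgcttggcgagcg
CRELD2, chr22:49918542-49918584, + strand: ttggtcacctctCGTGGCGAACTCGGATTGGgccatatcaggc
ERO1B, chr1:236282171-236282208, - strand: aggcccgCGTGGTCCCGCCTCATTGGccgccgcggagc
XBP1, chr22:28800591-28800633, - strand: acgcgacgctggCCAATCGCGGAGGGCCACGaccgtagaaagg
CANX, chr5:179698766-179698808, + strand: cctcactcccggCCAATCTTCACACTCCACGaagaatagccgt

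HSPA5 encodes BiP, the main ER chaperone, whose release from the stress sensors switches on the unfolded protein response. Its upstream window is shown whole, as the promoter of the best known target of the element, with the match again in capitals.
HSPA5, chr9:125241344-125241593, - strand: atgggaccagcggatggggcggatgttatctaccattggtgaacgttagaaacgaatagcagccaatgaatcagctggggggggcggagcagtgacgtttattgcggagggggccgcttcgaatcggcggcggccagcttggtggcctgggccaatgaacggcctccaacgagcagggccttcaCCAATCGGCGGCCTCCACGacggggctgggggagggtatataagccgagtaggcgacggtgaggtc

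HSPA5 stood at 2973 and 3263 CPM in parental and 1226 and 1232 CPM in C5 (log2 -1.34 ± 0.15, adjusted p = 0.000443). HSP90B1, the ER form of HSP90, fell from 3337 and 3345 to 1567 and 1697 CPM (log2 -1.03 ± 0.17, adjusted p = 0.00346), and the calcium-binding chaperone CALR from 2899 and 3245 to 1711 and 1876 CPM (log2 -0.78 ± 0.18, adjusted p = 0.0164). CANX, the membrane-bound relative of CALR, was 1996 and 2130.1 CPM in parental and 1638 and 1649 CPM in C5. Both C5 libraries were below the parental libraries, but CANX did not pass (log2 -0.33 ± 0.17, adjusted p = 0.206). It passed in the fit without clone B5 (adjusted p = 0.04765, edgeR). PDIA6 (log2 -0.59), CRELD2 (-0.78) and ERO1B (-0.83), all of disulfide formation or its regulation, fell as well.

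Genes of degradation, export and stress sensing were also read. SYVN1, the ubiquitin ligase HRD1 of ER-associated degradation, fell from 222 and 206 to 75.9 and 79.4 CPM (log2 -1.46 ± 0.12, adjusted p = 8.39e-05), and its partners SEL1L (log2 -0.94 ± 0.15, adjusted p = 0.00306) and DERL3 (log2 -1.29 ± 0.13, adjusted p = 0.000298) fell too. SEC24D, a coat protein of vesicles that leave the ER, fell from 220.2 and 222 to 99.3 and 88.8 CPM (log2 -1.23 ± 0.11, adjusted p = 0.000114). The disulfide isomerase PDIA4 fell from 870.5 and 923 to 357 and 374 CPM (log2 -1.29 ± 0.13, adjusted p = 0.000296). Of the 3 stress sensors, EIF2AK3, which encodes PERK, fell from 238 and 225 to 113 and 121 CPM (log2 -0.98 ± 0.11, adjusted p = 0.00051) and ERN1, which encodes IRE1, from 323 and 284 to 172 and 184 CPM (log2 -0.77 ± 0.20, adjusted p = 0.0266). ERN1 did not pass without TMM scaling (adjusted p = 0.0949). ATF6 was 165 and 178 CPM in parental and 188 and 194 CPM in C5 and did not pass (log2 0.15 ± 0.11, adjusted p = 0.387).

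The amino acid stress genes did not fall as a group: of 30 tested, 4 were lower and 1 higher, with a median log2 fold change of -0.15. The shares over all genes were 9.28% lower and 10.4% higher. SLC7A11, the cystine transporter, fell (log2 -0.97 ± 0.21, adjusted p = 0.013) and SESN2 rose (log2 0.47 ± 0.11, adjusted p = 0.0164). Of the 36 lower ER genes, 6 lie on chromosomes 4 and 11, whose genes were lower as a whole in C5 (below); among the 41 ER genes outside those chromosomes and X, 30 were lower, with a median of -0.70. Relative to clones B5 and C1, 4 of the 48 ER genes were lower in C5, DERL3, PDIA5, SDF2L1 and SEL1L, and none was higher. Over all genes 2.09% were lower in that comparison. The count lower than parental was 24 without parental library 1, 21 without parental library 2, 19 without C5 library 1 and 17 without C5 library 2.

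**Figure D2:**
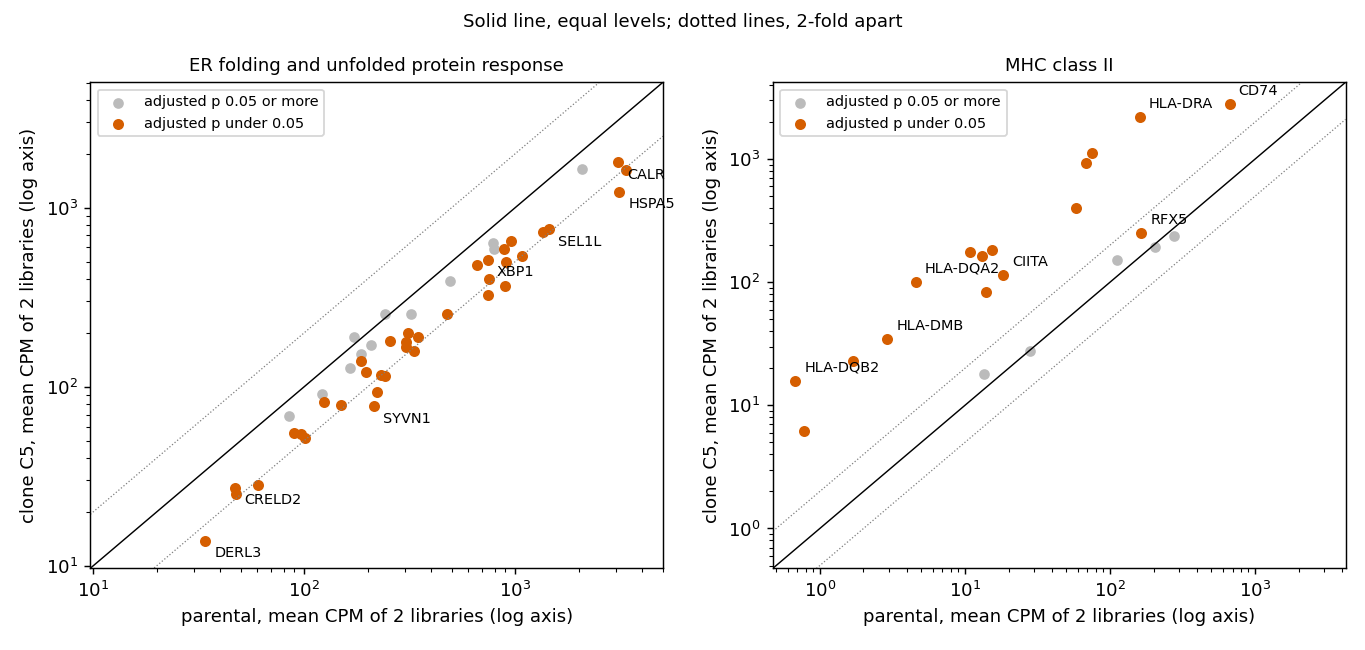
Mean CPM of the 2 C5 libraries (y axis) against that of the 2 parental libraries (x axis), both on log axes, for the ER list (left) and the MHC class II list (right); each point is a gene, orange where the adjusted p is under 0.05. Of the 48 ER genes 46 lie below equal levels and 36 are called lower, and 16 of the 21 class II genes are called above it.

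MHC class II molecules present antigen to CD4 T cells, and CIITA is the coactivator that turns their genes on together through the X and Y boxes of their promoters. Of 21 class II pathway genes, 16 rose in C5 and none fell, with a median log2 fold change of 3.00. Over all genes 10.4% were higher and 9.28% lower. The X box core, AG, any base, AAC, any base and GATG, searched on both strands, was found in the RefSeq promoters of 3 of the 17 list genes with an entry, HLA-DRB1, HLA-DRB5 and HLA-DMB, and in 0.285% of all 35116 promoters; these 3 genes rose. The shorter CCAAT of the Y box was found in 14 of the 17, but also in 34.6% of all promoters. The 3 X box matches are shown with the core in capitals.
HLA-DRB1, chr6:32589905-32589939, - strand: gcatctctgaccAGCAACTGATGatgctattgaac
HLA-DRB5, chr6:32530388-32530422, - strand: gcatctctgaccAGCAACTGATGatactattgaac
HLA-DMB, chr6:32941094-32941128, - strand: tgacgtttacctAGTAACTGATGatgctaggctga

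The upstream windows of HLA-DRB1 and HLA-DMB are shown with both kinds of match in capitals. In HLA-DRB1 the CCAAT nearest the start site lies on the opposite strand and reads ATTGG. Relative to the start site it begins at -46, and the X box core at -79. In HLA-DMB the CCAAT lies on the gene's strand and begins at -22, and the X box core at -88. Strand and spacing thus differ between these genes, and whether either CCAAT is a Y box was not tested.
HLA-DRB1, chr6:32589849-32590098, - strand: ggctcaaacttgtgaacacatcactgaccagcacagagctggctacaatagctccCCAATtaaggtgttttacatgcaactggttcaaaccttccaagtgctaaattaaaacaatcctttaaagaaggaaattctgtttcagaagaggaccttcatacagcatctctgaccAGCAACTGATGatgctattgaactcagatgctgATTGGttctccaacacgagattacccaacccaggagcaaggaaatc
HLA-DMB, chr6:32941029-32941278, - strand: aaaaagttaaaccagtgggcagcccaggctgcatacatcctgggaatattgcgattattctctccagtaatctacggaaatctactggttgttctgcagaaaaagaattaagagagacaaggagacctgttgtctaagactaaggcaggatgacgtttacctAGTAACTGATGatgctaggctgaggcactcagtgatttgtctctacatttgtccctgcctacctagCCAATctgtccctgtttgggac

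CIITA (chr16:10866222-10943021, plus strand) was 20.96 and 15.6 CPM in parental, 70.6 and 34.5 in B5, 57.9 and 42.1 in C1 and 114 and 115 in C5. It rose in C5 (log2 2.65 ± 0.31, adjusted p = 0.000639), and both C5 libraries were above those of the other clones (log2 1.16 ± 0.24, adjusted p = 0.0332), a call that did not hold without TMM scaling (adjusted p = 0.0695). HLA-DQA1, an alpha chain, went from 69.5 and 80.3 to 1069 and 1162 CPM, a 14.9-fold rise (log2 3.90 ± 0.22, adjusted p = 1.25e-05). HLA-DRB1 rose from 60.9 and 76.3 to 867 and 976 CPM (log2 3.75 ± 0.23, adjusted p = 1.88e-05) and HLA-DRA, its partner chain, from 143 and 177 to 2001 and 2361 CPM (log2 3.77 ± 0.23, adjusted p = 1.88e-05). HLA-DPB1 rose from 14.98 and 15.99 to 175 and 190.1 CPM (log2 3.56 ± 0.19, adjusted p = 1.25e-05). HLA-DMB, a chain of the peptide exchanger, rose from 2.79 and 3.04 to 33.2 and 35.95 CPM (log2 3.57 ± 0.21, adjusted p = 1.55e-05), and its inhibitor chain HLA-DOA from 2.07 and 1.33 to 20.4 and 25.2 CPM (log2 3.74 ± 0.27, adjusted p = 4.98e-05). No C5 library overlapped a parental library in any of these genes. That alone was common, since both C5 libraries were above both parental libraries at 33.6% of all genes tested. DRB1 and DRB5, and DQA1 and DQA2, are near-identical copies, and their separate values depend on how the authors' counting split reads.

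CD74, the invariant chain that fills the groove during assembly, rose from 641 and 697 to 2461 and 3145 CPM (log2 2.07 ± 0.19, adjusted p = 0.000136). Among the DNA-binding factors of the X box, RFX5 rose (log2 0.62 ± 0.13, adjusted p = 0.00919), while RFXAP (log2 0.42) and RFXANK (-0.05) did not pass. RFXAP passed with the 4 C5 and parental libraries alone (adjusted p = 0.0283, edgeR) and in the fit without clone B5 (adjusted p = 0.0299, edgeR). The lysosomal proteases CTSS (log2 -0.09) and LGMN (-0.22) and the reductase IFI30 (0.45) did not pass either. IFI30 did pass in several other settings, among them DESeq2 (adjusted p = 0.028), limma (adjusted p = 0.0483) and edgeR without TMM scaling (adjusted p = 0.00925). The number of class II genes called higher was 15 without any 1 of the 4 libraries. Against clones B5 and C1, 10 of the 21 were higher in C5 and none lower, where 2.33% of all genes were higher, but with single libraries left out that count was 0 without C5 library 1 or 2, 6 without C1 library 1, 2 without C1 library 2 and 17 without B5 library 2. Class II genes were also called higher than parental in B5 (16 of 21) and in C1 (16 of 21), from the same parental libraries.

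Of 20 genes of MHC class I and its loading machinery 7 rose and 2 fell (10.4% and 9.28% over all genes), with a median log2 fold change of 0.36. The chromosome 6 window from 30 to 40 Mb, which holds 8 of them and 13 of the 21 class II genes, was higher as a whole: without either list, 50 of its 151 tested genes were higher (33.1%) and 2 lower, with a median of 0.35. Of the 8 class I genes in the window 5 were higher, and of the 12 outside it 2 were higher and 2 lower. The part of the region in the class I count was not tested. The peptide transporter TAP1 rose from 44.2 and 55.3 to 122 and 137 CPM (log2 1.38 ± 0.17, adjusted p = 0.000713) and HLA-B from 755 and 838 to 1580.2 and 1792 CPM (log2 1.08 ± 0.16, adjusted p = 0.00218). B2M, the shared light chain, was 1177 and 1355 CPM in parental and 1452 and 1572 CPM in C5 (log2 0.26 ± 0.17, adjusted p = 0.321). Of the immunoproteasome subunits, PSMB9 rose (log2 0.81 ± 0.18, adjusted p = 0.014) and PSMB10 fell (log2 -0.70 ± 0.17, adjusted p = 0.0222). The trimming peptidase ERAP1 fell (log2 -0.58 ± 0.12, adjusted p = 0.00978).

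**Figure D3:**
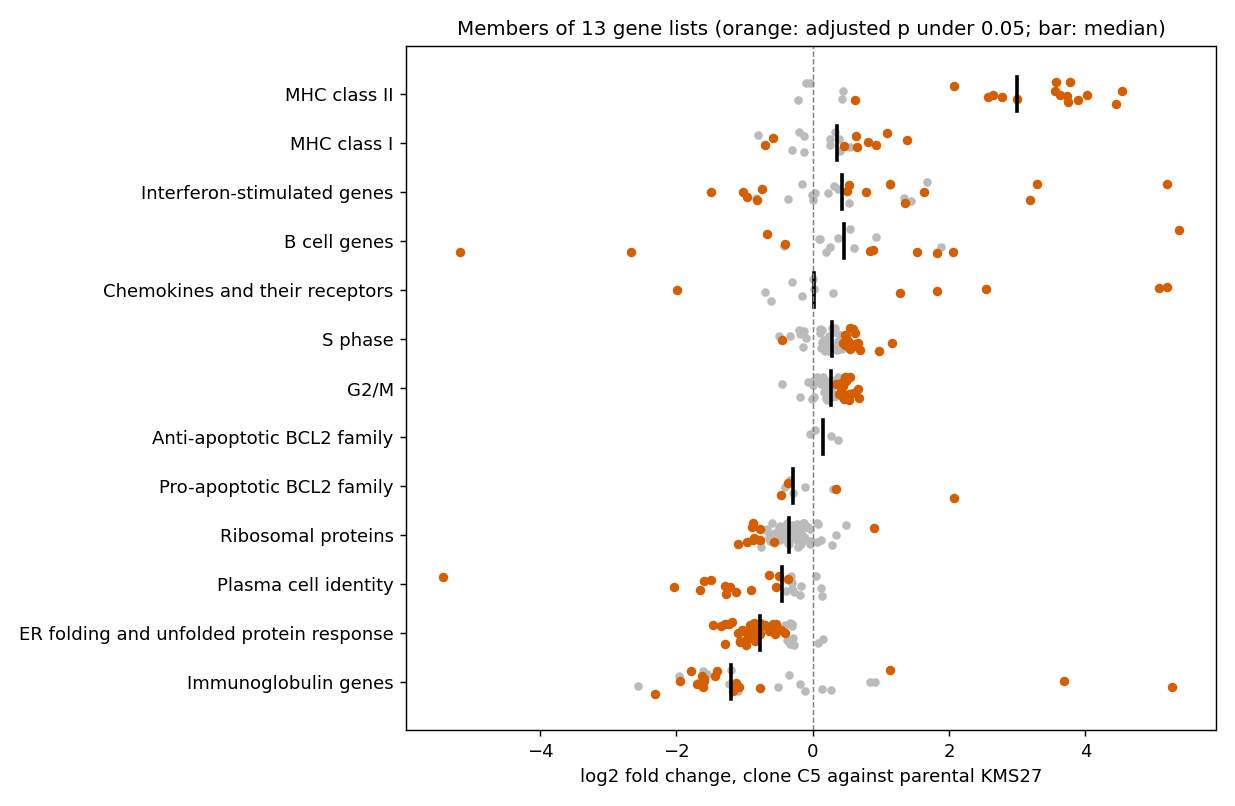
log2 fold change of C5 against parental (x axis) for the tested members of 13 gene lists (y axis); each point is a gene, orange where the adjusted p is under 0.05, and the bar is the list's median. The class II median is at 3.00 and the immunoglobulin median at -1.20, with both cell cycle lists at 0.28 and 0.27.

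Interferon-stimulated genes were higher in C5 than in the other clones. Against B5 and C1, 14 of 28 tested genes were higher in C5 and none lower, with a median log2 difference of 0.65 against 0.01 over all genes; the background was 2.33% higher. Against parental the list was mixed, with 9 genes higher, 5 lower and a median of 0.43, where 10.4% of all genes were higher and 9.28% lower. The core of the interferon-stimulated response element is GAAA, 2 bases of any kind and GAAA. Searched on both strands, it was found in RefSeq promoters of 15 of the 21 list genes with an entry and in 3.57% of all promoters. Against parental, 7 of the 15 were higher in C5 and 3 lower. XAF1, which was higher in C5 than in the clones (below), had no match in its promoters. Of the 15 genes with a match, 8 were higher in C5 than in B5 and C1, beside 14 of 28 over the whole list. A selection of matches, 1 or 2 for each of 7 of these 8 genes, is shown with the core in capitals, and a match on the opposite strand reads TTTC on each side of the 2 bases.
IFIT3, chr10:89327829-89327862, + strand: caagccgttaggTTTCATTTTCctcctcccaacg
IFIT3, chr10:89327863-89327896, + strand: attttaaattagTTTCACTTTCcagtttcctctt
IFIT5, chr10:89414511-89414544, + strand: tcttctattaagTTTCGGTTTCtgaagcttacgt
CXCL10, chr4:76023697-76023730, - strand: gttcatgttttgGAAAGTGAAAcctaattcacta
IFI6, chr1:27672327-27672360, - strand: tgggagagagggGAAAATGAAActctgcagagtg
IFIH1, chr2:162318822-162318855, - strand: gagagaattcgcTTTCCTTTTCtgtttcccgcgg
PARP14, chr3:122680798-122680831, + strand: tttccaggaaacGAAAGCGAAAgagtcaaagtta
EIF2AK2, chr2:37156965-37156998, - strand: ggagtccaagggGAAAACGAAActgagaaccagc

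IFIT3 has 2 start sites in the table; the window before the first is shown for the spacing of its pair of matches.
IFIT3, chr10:89327747-89327996, + strand: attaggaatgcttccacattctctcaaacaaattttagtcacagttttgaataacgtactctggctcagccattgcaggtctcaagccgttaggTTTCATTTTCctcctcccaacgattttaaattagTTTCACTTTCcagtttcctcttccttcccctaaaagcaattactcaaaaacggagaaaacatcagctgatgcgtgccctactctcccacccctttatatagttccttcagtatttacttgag

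IFIT3, an RNA-binding antiviral effector, was 0.689 and 1.05 CPM in parental, 1.54 and 1.22 in B5, 0.894 and 1.57 in C1 and 5.49 and 11.6 in C5. Both C5 libraries lay above the other 6, with library 2 the higher of the pair (log2 3.29 ± 0.46, adjusted p = 0.00151 against parental and 2.72 ± 0.35, adjusted p = 0.00427 against the clones). IFIT5 went from 0.254 and 0.273 CPM in parental to 1.75 and 3.15 CPM in C5 (log2 3.19 ± 0.57, adjusted p = 0.00505; against the clones 3.21 ± 0.44, adjusted p = 0.00641). CXCL10, an interferon-induced chemokine that draws CXCR3-bearing T cells, was 0.145 and 0.390 CPM in parental and 9.03 and 10.7 CPM in C5 (log2 5.20 ± 0.43, adjusted p = 9.95e-05; against the clones 1.99 ± 0.27, adjusted p = 0.00566). ISG15, a ubiquitin-like modifier, rose from 1.78 and 2.54 to 5.42 and 7.94 CPM (log2 1.63 ± 0.33, adjusted p = 0.00908), and EIF2AK2, the double-stranded RNA kinase PKR, from 68.3 and 59.95 to 106 and 113 CPM (log2 0.78 ± 0.12, adjusted p = 0.00234).

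Some of the 14 genes higher than in the other clones were not called against parental. IRF9, a transcription factor of the interferon response, was 19.2 and 20.8 CPM in parental, 18.4 and 16.3 in B5, 10.7 and 11.2 in C1 and 20.7 and 30.96 in C5, with log2 0.37 against parental and 0.90 ± 0.16, adjusted p = 0.0158 against the clones. XAF1, an antagonist of the caspase inhibitor XIAP, was higher than in both: 2.21 and 2.18 CPM in parental, 0.416 and 0.744 in B5, 0.536 and 0.230 in C1 and 4.99 and 6.22 in C5 (log2 1.35 ± 0.37, adjusted p = 0.0315 against parental, adjusted p = 0.0568 with limma, and 3.53 ± 0.33, adjusted p = 0.00119 against the clones). In B5, 11 of the 28 genes were lower than parental and 1 higher, and in C1 7 lower and 3 higher. The 5 genes lower in C5 than in parental were ISG20, SAMD9, SAMD9L, IFITM1 and IFITM2, of which the last pair lies on chromosome 11. The count higher than in B5 and C1 was 8 without C1 library 1, 6 without C1 library 2, 5 without C5 library 1 and 1 without C5 library 2.

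**Figure D4:**
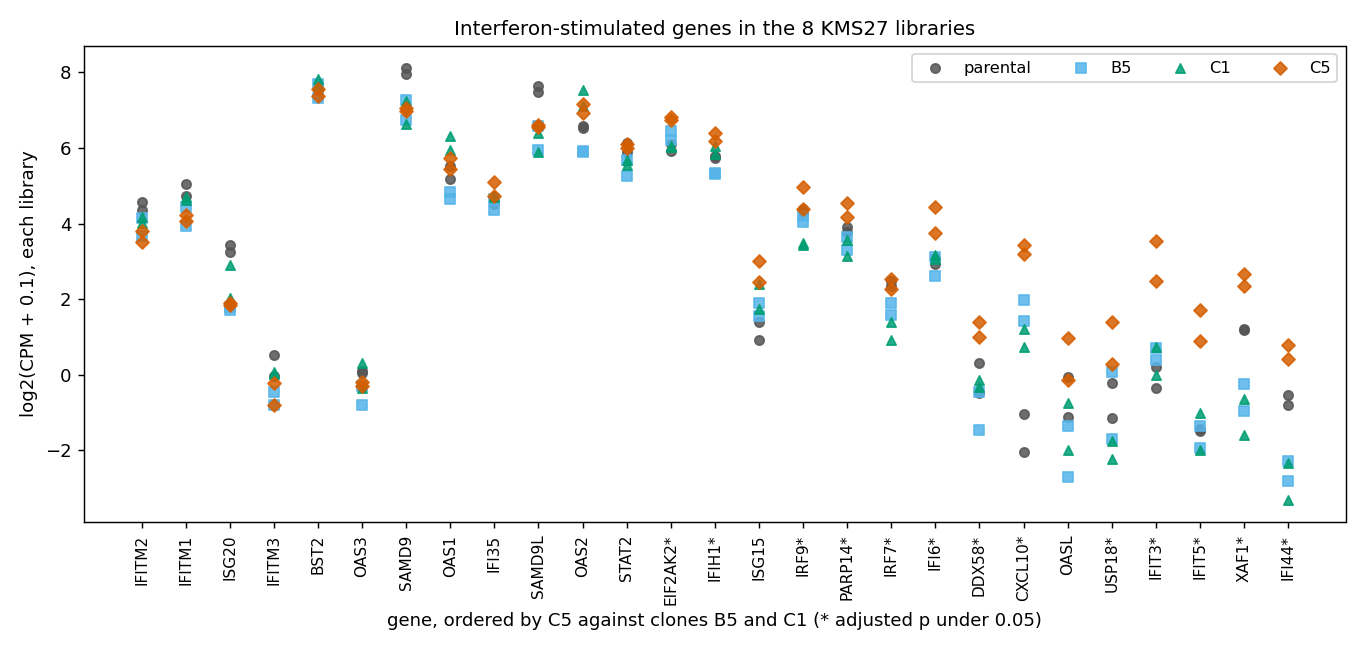
log2(CPM + 0.1) of 27 of the 28 tested interferon-stimulated genes (x axis, ordered by the difference between C5 and clones B5 and C1) in each of the 8 KMS27 libraries; symbols mark the population and a star marks an adjusted p under 0.05 for that difference. Stars mark 13 genes, in which both C5 points lie above those of B5 and C1; 1 of the 14 called genes is not drawn.

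In the pathway that venetoclax targets, the guardians did not pass the test and 1 activator rose. BCL2 was 198 and 199 CPM in parental and 251 and 228 CPM in C5 (log2 0.27 ± 0.11, adjusted p = 0.116). MCL1 was 515 and 506 CPM in parental and 504 and 493 CPM in C5 (log2 -0.03 ± 0.12, adjusted p = 0.87), and BCL2L1 was 16.8 and 18.4 CPM in parental and 22.9 and 22.6 CPM in C5 (log2 0.37 ± 0.18, adjusted p = 0.19). BCL2L1 passed with the 4 libraries alone (adjusted p = 0.0361, edgeR) and in the fit without clone B5 (adjusted p = 0.0302, edgeR). BCL2L2, which encodes BCL-W, had a log2 fold change of 0.04 ± 0.13, adjusted p = 0.877. With all 8 libraries in the fit edgeR, DESeq2 and limma each called 0 of these 4, and 1, BCL2, had an unadjusted edgeR p under 0.05; the data do not show that the levels were equal.

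BCL2L11, which encodes BIM, the BH3-only activator that BCL2 holds in check, rose 4.22-fold. It was 12.7 and 12.9 CPM in parental, 23.2 and 24.03 in B5, 30.3 and 22.9 in C1 and 53.1 and 54.9 in C5. The C5 libraries were the highest of the 8 (log2 2.08 ± 0.15, adjusted p = 3.94e-05 against parental and 1.11 ± 0.12, adjusted p = 0.00185 against the clones). Of 9 tested pro-apoptotic family members, 2 rose and 2 fell, against 10.4% higher and 9.28% lower over all genes. PMAIP1, or NOXA, which neutralises MCL1, rose (log2 0.34 ± 0.10, adjusted p = 0.0406). BMF (log2 -0.46 ± 0.11, adjusted p = 0.0158) and the pore former BAX (log2 -0.36 ± 0.11, adjusted p = 0.0458) fell. BAX was 35.7 and 36.9 CPM in parental and 27.6 and 28.9 CPM in C5, and neither call held without TMM scaling (adjusted p = 0.11 for BAX and 0.0612 for BMF), nor BAX with DESeq2 (adjusted p = 0.0547). The other pore former, BAK1, was 21.2 and 25.7 CPM in parental and 28.1 and 29.4 CPM in C5 (log2 0.30 ± 0.15, adjusted p = 0.207). BID (log2 -0.34), BAD (-0.40), HRK (-0.29) and BBC3 (-0.11) did not pass. BAD passed with the 4 C5 and parental libraries alone (adjusted p = 0.0400, edgeR) and in the fit without clone B5 (adjusted p = 0.0344, edgeR).

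Of 20 apoptosome, caspase and death receptor genes, 1 rose and 3 fell, against 10.4% higher and 9.28% lower over all genes. The death receptor FAS rose from 57.6 and 60.6 to 109 and 111 CPM (log2 0.90 ± 0.13, adjusted p = 0.00198). Its adaptor FADD fell (log2 -0.43 ± 0.13, adjusted p = 0.0474), as did CYCS, the cytochrome c gene (log2 -0.43 ± 0.12, adjusted p = 0.0338). FADD, which lies on chromosome 11, did not pass with limma (adjusted p = 0.0518). The initiator caspases CASP8 and CASP9 did not pass (log2 -0.32 and 0.29).

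B cell genes moved in both directions, 6 up and 4 down of 20 tested, with a median of 0.46 on the log2 scale. The shares over all genes were 10.4% higher and 9.28% lower. MS4A1, which encodes CD20, the target of rituximab, was near absent outside C5: 0.326 and 0.117 CPM in parental, 0.0416 and 0 in B5, 0.596 and 0.154 in C1 and 9.23 and 9.70 in C5. Both C5 libraries lay above the other 6 (log2 5.37 ± 0.59, adjusted p = 0.000401; against the clones, 6.46 ± 0.51, adjusted p = 0.000522, a value that rests on few counts in B5). BTK, the B cell receptor kinase, rose from 14.2 and 15.3 to 61.96 and 60.6 CPM (log2 2.06 ± 0.11, adjusted p = 1.25e-05); it lies on the X chromosome, whose genes were higher as a whole. SPIB rose (log2 1.82 ± 0.19, adjusted p = 0.000287) as did PAX5, the master factor of B cell identity, from 14.5 and 13.7 to 25.9 and 26.3 CPM (log2 0.89 ± 0.12, adjusted p = 0.00112). CD37, a tetraspanin, fell from 9.21 and 9.56 to 0.270 and 0.239 CPM (log2 -5.18 ± 0.32, adjusted p = 1.97e-05). It was also low in B5 (0.208 and 0.160 CPM) and C1 (0.238 and 0.269 CPM). The kinase BLK fell from 13.6 and 12.8 to 1.85 and 2.31 CPM (log2 -2.66 ± 0.26, adjusted p = 0.000228). CD79B, a chain of the B cell receptor, did not pass (log2 0.10).

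Chemokine and receptor genes included some of the largest rises. CCR7, the receptor that guides lymphocytes to lymph nodes, rose from 3.30 and 3.04 CPM in parental to 97.4 and 117 CPM in C5, a 33.7-fold rise (log2 5.07 ± 0.24, adjusted p = 9.27e-06). Clone B5 had 20.3 and 22.4 CPM and C1 46.5 and 29.7 CPM, between the other populations (C5 against them log2 1.90 ± 0.16, adjusted p = 0.000692). CCL5 rose from 3.45 and 5.30 to 23.6 and 27.4 CPM (log2 2.54 ± 0.25, adjusted p = 0.000254) and CCL3 from 19.2 and 20.8 to 42.6 and 54.3 CPM (log2 1.28 ± 0.28, adjusted p = 0.013). CCR2 fell (log2 -1.99 ± 0.39, adjusted p = 0.00764) and CXCR4, the marrow homing receptor, did not pass (log2 -0.31 ± 0.14, adjusted p = 0.156). In all, 5 of 13 rose and 1 fell, against 10.4% higher and 9.28% lower over all genes.

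PTGER4, a prostaglandin E2 receptor, rose from 0.979 and 0.780 to 29.4 and 31.00 CPM (log2 5.09 ± 0.21, adjusted p = 4.23e-06), above 10.1 and 12.7 CPM in B5 and 5.10 and 4.88 CPM in C1 (log2 2.00 ± 0.13, adjusted p = 0.000131). IL2RB rose from 1.96 and 1.37 to 17.8 and 21.5 CPM (log2 3.55 ± 0.21, adjusted p = 1.54e-05). The cytokine gene IL32 fell from 624 and 769 to 17.2 and 23.02 CPM (log2 -5.12 ± 0.36, adjusted p = 4.06e-05), and was 9.44 and 14.1 CPM in B5 and 22.8 and 10.8 CPM in C1. Of 28 NF-kB genes, 9 rose and 2 fell, against 10.4% higher and 9.28% lower over all genes. TNFAIP3, the A20 inhibitor of the pathway, rose from 111 and 107 to 169 and 172 CPM (log2 0.65 ± 0.14, adjusted p = 0.0118). NFKBIE, an inhibitor of the same pathway, rose too (log2 1.00 ± 0.14, adjusted p = 0.00165).

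Of 25 adhesion genes 8 rose and 4 fell, against 10.4% and 9.28% over all genes. The matricellular gene SPARC rose from 0.0363 and 0.0390 to 5.53 and 6.78 CPM, and CD99 from 12.9 and 14.5 to 60.95 and 67.3 CPM (log2 2.23 ± 0.16, adjusted p = 4.06e-05). ITGAL, the alpha chain of LFA-1, fell from 704 and 669.7 to 248 and 275 CPM (log2 -1.39 ± 0.12, adjusted p = 0.000124) and ITGA8 from 88.2 and 86.2 to 17.6 and 12.7 CPM (log2 -2.52 ± 0.26, adjusted p = 0.000306). Among MAPK feedback and early response genes 5 of 23 rose and 5 fell, against the same shares: DUSP10, a phosphatase of stress kinases, rose from 7.47 and 7.29 to 27.6 and 30.05 CPM (log2 1.96 ± 0.16, adjusted p = 0.0001), DUSP6 rose (log2 1.39 ± 0.23, adjusted p = 0.00342), and KLF2 fell from 15.3 and 15.4 to 0.741 and 1.04 CPM (log2 -4.12 ± 0.37, adjusted p = 0.000136). EGR1 fell (log2 -2.03 ± 0.28, adjusted p = 0.0015).

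Some cell cycle genes were modestly higher in C5, and more were higher in B5. Against the same parental libraries, 20 of 50 S phase genes were higher in B5 and 10 in C1. Of 48 G2/M genes, 30 were higher in B5 and 3 in C1. Over all 14088 genes, 1523 were higher in B5 and 1620 in C1. Relative to B5 and C1, 2 S phase genes were higher in C5 and 2 lower, and 0 G2/M genes passed either way. In C5 against parental, 15 of the 50 S phase genes rose and 1 fell (median 0.28). Of the 48 G2/M genes 16 rose and none fell (median 0.27), against 10.4% higher in the background. POLA1, the catalytic subunit of DNA polymerase alpha, rose from 96.8 and 96.5 to 218 and 215 CPM (log2 1.16 ± 0.12, adjusted p = 0.000266) and lies on the X chromosome. CCNE2, cyclin E2, rose from 28.9 and 26.8 to 60.3 and 48.7 CPM (log2 0.97 ± 0.13, adjusted p = 0.00117), and TOP2A, topoisomerase II, from 643 and 646 to 1045 and 1027 CPM (log2 0.69 ± 0.13, adjusted p = 0.00624). The mitotic kinesins KIF11 (log2 0.66 ± 0.12, adjusted p = 0.00503) and KIF23 (log2 0.55 ± 0.10, adjusted p = 0.00511) rose. Both counts rested on all 4 libraries: S phase calls were 4 without parental library 1, parental library 2 or C5 library 1 and 3 without C5 library 2, and G2/M calls were 2 without parental library 1 or C5 library 2 and 1 without either of the others.

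CCND1, the cyclin D1 gene placed under immunoglobulin enhancers by t(11;14), was 1084 and 1024 CPM in parental and 813 and 820.0 CPM in C5 (log2 -0.37 ± 0.14, adjusted p = 0.0971); it did not pass, but did with DESeq2 (adjusted p = 0.0111). CCND1 lies on chromosome 11, whose genes were lower as a whole (median log2 fold change -0.38). The retinoblastoma relative RBL2 fell (log2 -0.78 ± 0.11, adjusted p = 0.00154) and the inhibitor CDKN1A rose (log2 0.56 ± 0.13, adjusted p = 0.0186). CDKN1B fell (log2 -0.43 ± 0.11, adjusted p = 0.0211), though not without TMM scaling (adjusted p = 0.109). Histone genes were higher at 11 of 53, against 10.4% over all genes. One was lower, against 9.28%, the linker histone H1F0 (log2 -1.48 ± 0.24, adjusted p = 0.00308). Of the 11 higher ones 8 lie on chromosome 6, where 22.0% of all tested genes were higher. HIST1H2BK rose from 17.8 and 20.8 to 47.8 and 50.8 CPM (log2 1.35 ± 0.25, adjusted p = 0.00668). Most histone messages lack a poly(A) tail, and the libraries were made from poly(A) RNA. The histone count was 2 without parental library 1, 7 without parental library 2, 4 without C5 library 1 and 0 without C5 library 2.

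MYC, a driver of growth, fell from 113 and 115 to 69.6 and 73.2 CPM (log2 -0.67 ± 0.11, adjusted p = 0.00317). Ribosomal protein genes were lower at 9 of 84, near the 9.28% over all genes, and higher at 1, with a median of -0.35. Of those 9, FAU, RPL27A, RPLP2 and RPS13 lie on chromosome 11 and RPL9 on chromosome 4. The list took 9.11% and 11.1% of the counts in the parental libraries and 8.18% and 8.77% in C5, so the parental libraries differed from each other by more than the C5 libraries did. Of 22 glycolysis genes 5 fell and 1 rose, against 9.28% lower and 10.4% higher over all genes. ENO2, the neuronal enolase, fell from 18.6 and 17.8 to 0.270 and 0.399 CPM (log2 -5.77 ± 0.33, adjusted p = 1.54e-05). PDK1 fell (log2 -1.04 ± 0.12, adjusted p = 0.000466) and PFKFB3 rose (log2 1.99 ± 0.19, adjusted p = 0.000179). Further lists are given against the same shares over all genes (10.4% higher, 9.28% lower). Proteasome genes were lower at 3 of 31 and higher at none, and complex I genes lower at 3 of 38 and higher at 1. Cholesterol synthesis genes were higher at 2 of 25 and lower at 1. Fatty acid genes were lower at 4 of 17, all on chromosomes 4 and 11, and higher at 1; the elongase ELOVL6 fell from 24.6 and 25.4 to 7.72 and 8.74 CPM (log2 -1.60 ± 0.15, adjusted p = 0.000181).

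Targets of antibody and cell therapy for myeloma moved in both directions. Besides CD38 and CD74, CD47, the phagocytosis checkpoint, rose from 71.2 and 69.9 to 103 and 95.05 CPM (log2 0.49 ± 0.12, adjusted p = 0.0205) and ICAM1 from 157 and 159 to 249.5 and 308 CPM (log2 0.82 ± 0.22, adjusted p = 0.0316). TNFRSF17, which encodes BCMA, was 97.7 and 116 CPM in parental and 82.8 and 79.4 CPM in C5, below both parental libraries but not past the test (log2 -0.40 ± 0.15, adjusted p = 0.0978), although it passed with the 4 libraries alone (adjusted p = 0.0165). SLAMF7, the target of elotuzumab, was 992 and 1142 CPM in parental and 889.7 and 983 CPM in C5 (log2 -0.19 ± 0.14, adjusted p = 0.38). Of 13 target genes tested, 4 rose and 3 fell against parental, where 10.4% of all genes were higher and 9.28% lower. Lower than in B5 and C1 were 4 of the 13, against 2.09% of all genes. These were CD38, SDC1, TNFRSF17 and ITGB7 (the last at log2 -0.75 ± 0.12, adjusted p = 0.0124).

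CRBN, cereblon, the receptor of lenalidomide, was 29.5 and 34.4 CPM in parental and 32.3 and 31.6 CPM in C5 (log2 0.00 ± 0.13, adjusted p = 0.992). Its substrates IKZF1 (log2 0.19 ± 0.12, adjusted p = 0.293) and IKZF3 (log2 0.36 ± 0.30, adjusted p = 0.448) did not pass. IKZF3 did in the fit without clone B5 (adjusted p = 0.0432, edgeR). Another substrate, ZFP91, which lies on chromosome 11, fell (log2 -0.54 ± 0.12, adjusted p = 0.0131). Ligands seen by natural killer and T cells rose at 3 of 16 genes and fell at 1, against 10.4% and 9.28% over all genes. MICB, a ligand of NKG2D in the same chromosome 6 window as the MHC, rose (log2 0.69 ± 0.12, adjusted p = 0.00417). CD58, the ligand of CD2, rose from 50.1 and 48.4 to 73.8 and 70.2 CPM (log2 0.55 ± 0.12, adjusted p = 0.014). CD58 was also above clones B5 and C1 (log2 0.85 ± 0.10, adjusted p = 0.0035). ICAM2 fell (log2 -0.60 ± 0.13, adjusted p = 0.0115). Of 18 ABC transporters 5 rose and 2 fell, against 10.4% higher and 9.28% lower over all genes. ABCB10 rose (log2 0.55 ± 0.11, adjusted p = 0.0106) and ABCC4 fell (log2 -0.73 ± 0.15, adjusted p = 0.0112). ABCC1, a drug efflux pump, did not pass (log2 -0.11 ± 0.11, adjusted p = 0.515).

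The largest falls among genes at 3 log2 CPM or more on average were led by SPNS3, a sphingolipid transporter relative, from 39.2 and 38.7 CPM in parental to 0.202 and 0.239 CPM in C5 (log2 -7.44 ± 0.26, adjusted p = 2.36e-06). UBASH3B, a phosphatase that restrains receptor signalling, went from 53.8 and 50.5 to 0.943 and 0.638 CPM (log2 -6.02 ± 0.32, adjusted p = 1.25e-05). It was also low in B5 (0.458 and 0.957 CPM) and C1 (0.636 and 0.269 CPM). RPH3A, SLC47A1, KCNK6, RARRES3, ID3 and TRIM55 had log2 fold changes of -4.58, -3.77, -3.30, -2.85, -2.77 and -2.75. Between C5 and clones B5 and C1, UBASH3B, RPH3A and KCNK6 did not pass (edgeR adjusted p = 0.523, 0.306 and 0.571). TRIM44, a ubiquitin ligase family member on chromosome 11, fell from 135 and 132 to 11.8 and 10.9 CPM (log2 -3.56 ± 0.13, adjusted p = 2.54e-06), yet stood above 6.70 and 8.35 CPM in B5 and 1.03 and 0.960 CPM in C1. At the same minimum level the largest rises, after PTGER4 and CCR7, were SEMA4D (log2 4.80), the fructose transporter SLC2A5 (4.55), THEMIS (4.26), the sodium-proton exchanger SLC9A7 (4.20), PRCAT47 (3.96) and TMPRSS15 (3.87), besides 4 class II genes. The minimum is a mean over all 8 libraries, so levels in the other clones count towards it for every gene listed. SLC2A5 reached it through those clones. It stood at 0.0363 and 0.117 CPM in parental and 2.02 and 1.68 CPM in C5. In B5 it was 44.9 and 47.2 CPM and in C1 14.9 and 10.2 CPM. SEMA4D, a semaphorin, went from 0.326 and 0.507 to 12.2 and 11.1 CPM. It was 17.1 and 10.8 CPM in B5 and 10.9 and 14.1 CPM in C1. THEMIS was 0.725 and 0.507 CPM in parental, 1.58 and 1.54 in B5, 34.4 and 25.5 in C1 and 13.01 and 10.93 in C5. TMPRSS15 was 0.363 and 0.741 CPM in parental, 6.99 and 8.08 in B5, 27.96 and 25.6 in C1 and 8.59 and 7.54 in C5. Both genes thus stood higher in C1 than in C5, while SLC9A7 and PRCAT47 were highest in C5.

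Near-complete losses and gains were counted by a floor of 3 counts over both libraries of a population. In C5, 22 genes were at or under that floor with at least 1 CPM in parental. PLA2G16, a phospholipase, had 676 counts in parental and 0 in C5, at least 231.8-fold lower against a floor of 3 counts over the population; clone B5 had 0 counts and C1 62. KIAA1217 (413 counts in parental), ANKS6 (318), COL27A1 (276) and C22orf34 (270) were also at 0 in C5, at least 142-fold, 109-fold, 94.7-fold and 92.6-fold lower. In the same order, B5 had 1, 0, 6 and 1 counts and C1 had 52, 60, 30 and 30. PYCARD, the ASC adaptor of the inflammasome, had 238 counts in parental and 0 in C5, at least 81.6-fold lower, while B5 still had 149 and C1 45.

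In the other direction 16 genes were at or under the floor in parental with at least 1 CPM in C5. LCP2, the adaptor SLP-76, had 3 counts in parental and 424 in C5, a ratio of 137 (exact 95% interval 46.7 to 669, counting error only). SPARC had 2 and 334 (ratio 162, interval 44.6 to 1346), and ITIH5 2 and 186 (ratio 90.4, interval 24.7 to 752). LCP2 had 280 counts in B5 and 288 in C1, and SPARC 82 in B5 and 376 in C1. In CPM, SPARC was 4.67 and 5.42 in C1, beside 5.53 and 6.78 in C5. ITIH5 had 1 count in B5 and 37 in C1. PGLYRP4, SERPINA1 and FRMPD4 were among the rest. The number of genes near off was 53 without C5 library 1 and 41 without C5 library 2, and the number near on was 34 without parental library 1 and 25 without parental library 2, since fewer libraries had to be under the floor.

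Against the mean of clones B5 and C1, 328 genes were higher in C5 (2.33%) and 294 lower (2.09%). MYO5B, a vesicle motor, stood apart: 7.73 and 7.68 CPM in parental, 4.99 and 4.36 in B5, 4.83 and 4.42 in C1 and 28.9 and 28.7 in C5 (log2 2.63 ± 0.12, adjusted p = 1.61e-05 against the clones and 1.90 ± 0.14, adjusted p = 5.9e-05 against parental). The 8 libraries fell into high values in C5, middle values in parental and low values in the other clones. RIMS3, a presynaptic scaffold, was 72.3 and 69.9 CPM in parental, 61.9 and 64.6 in B5, 36.2 and 33.3 in C1 and 144 and 129 in C5 (against the clones log2 1.54 ± 0.09, adjusted p = 6.35e-05). TNIK, a kinase of Wnt signalling, was 9.07 and 7.68 CPM in parental, 23.5 and 17.3 in B5, 18.5 and 23.97 in C1 and 52.7 and 52.7 in C5 (against the clones log2 1.34 ± 0.15, adjusted p = 0.00204).

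COL6A3, a collagen chain, was 295 and 235 CPM in B5, 20.1 and 24.9 in C1, 9.03 and 8.27 in parental and 4.35 and 4.51 in C5 (against the clones log2 -4.12 ± 0.16, adjusted p = 7.27e-06). CNTN1, a neuronal adhesion molecule, was 160.5 and 169.5 CPM in B5, 22.00 and 26.96 in C1, 55.2 and 55.7 in parental and 7.24 and 9.30 in C5 (against the clones log2 -2.94 ± 0.14, adjusted p = 2.43e-05). These differences therefore held the high level of B5 as well as the low level of C5. MACROD2 (log2 -1.95 ± 0.18, adjusted p = 0.00101) and HIC1 (log2 -1.89 ± 0.13, adjusted p = 0.000148) were lower in C5 than in the clones. GPR15 was lower than in the clones (log2 -3.14) but did not pass against parental (log2 -0.40 ± 0.45, adjusted p = 0.576). The counts of this comparison moved with single libraries: 1611 higher and 1471 lower without B5 library 1, 601 and 501 without B5 library 2, 168 and 146 without C1 library 1, 125 and 117 without C1 library 2, 35 and 23 without C5 library 1, and 19 and 22 without C5 library 2.

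By chromosome, genes on X were higher in C5 and genes on 4 and 11 lower. Of 423 tested genes on X, 208 were higher (49.2%, against 10.4% over all genes) and 11 lower, and the median log2 fold change was 0.53. Chromosome 11 had 211 of 661 genes lower (31.9%, against 9.28%) with a median of -0.38, and chromosome 4 had 114 of 423 lower (27.0%) with a median of -0.31. B5 and C1 were compared with the same parental libraries, and their medians were 0.55 and 0.58 for X, -0.59 and -0.36 for 11 and -0.32 and -0.31 for 4. Relative to B5 and C1 the medians of C5 were -0.02 for X, 0.10 for 11 and 0.02 for 4. On chromosome 19 the medians were -0.22 in C5, -0.19 in B5 and 0.05 in C1, and on chromosome 16 -0.19 in C5, 0.04 in B5 and -0.16 in C1. Positions came from GENCODE release 29 for 12205 of the 14088 genes; DNA copy number was not analysed here.

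**Figure D5:**
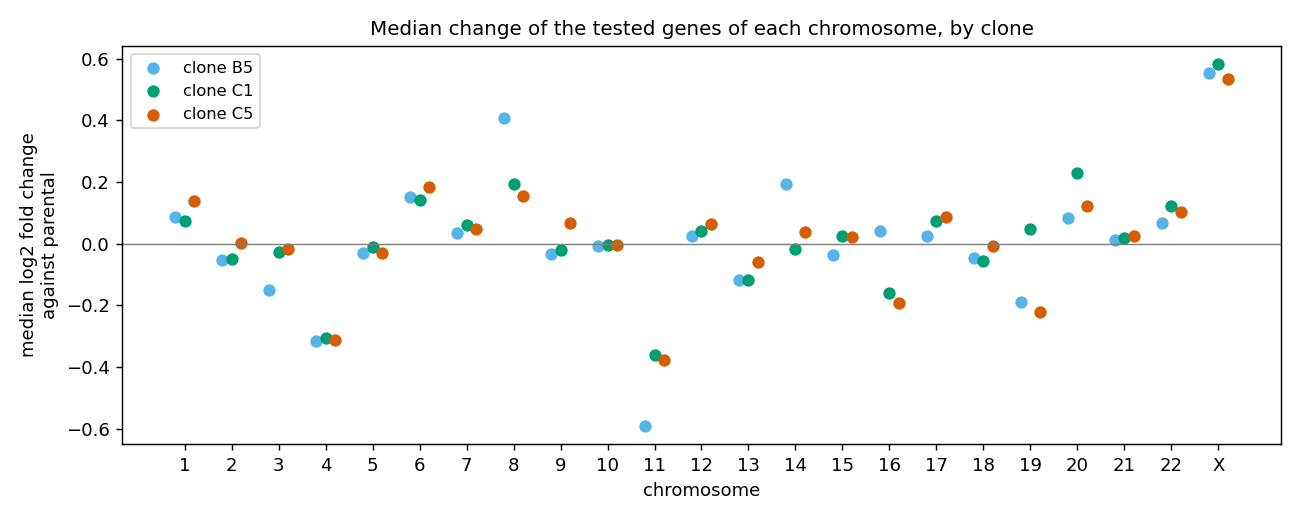
Median log2 fold change against parental (y axis) of the tested genes of each chromosome (x axis) for clones B5, C1 and C5; each point is a chromosome's median in a clone. C5 sits at 0.53 for X and at -0.38 and -0.31 for chromosomes 11 and 4.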

How the data were processed

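Poly(A) RNA libraries (2 per population, 8 for KMS27) were analysed from the raw count table the authors deposited: whole-number counts per gene symbol, with no normalization. The build is hg38 per the submitters' processing notes; no source used here names the aligner, the counter or the strand setting. Each listed gene has at least 5 counts in at least 4 libraries. The KMS12PE table was not used. The 14088 genes kept by filterByExpr (minimum count 10; 472 left out) were fitted in edgeR 4.0.16 (TMM scaling, quasi-likelihood test, 1 mean per population, all 8 libraries, 4 residual degrees of freedom, biological coefficient of variation 14.3%), with Benjamini-Hochberg adjustment over all genes. Standard errors are the log2 fold change over the root of F. Depth gave a floor of 3 counts at 0.101 to 0.120 CPM in C5. Genes were named by a fixed rule. It took the 12 largest called rises and falls (mean of at least 3 log2 CPM, C5 on one side of both parental libraries). Next came the 10 largest called differences in each direction against B5 and C1, at the same minimum level. There both C5 libraries had to lie on one side of all 4 libraries of B5 and C1. A short list of drug and plasma cell genes and up to 6 called genes per list were added. So were up to 8 genes near off and near on, and genes within 1 Mb of CD38. Other named genes were chosen after their values were seen. The comparison and the 34 gene lists were chosen with earlier results of these data known. DESeq2 1.42.0, limma 3.58.1 and other settings were run as alternatives, and the scripts were tested on simulated data. Some genes are not reported here.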

Additional observations from a re-analysis of the deposited data

Results flagged for a closer look

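For 19 named genes that were not near off in C5, the change from parental in C5 differed from the mean change in clones B5 and C1 by at least 4-fold, by a direct test of that difference (edgeR, adjusted p under 0.05). Lower in C5 were CD38 (log2 difference -5.03 ± 0.15, adjusted p = 1.5e-06), COL6A3 (-4.12), SLC2A5 (-3.70), AMPD1 (-3.34), RARRES3 (-3.16), GPR15 (-3.14), CNTN1 (-2.94) and SPNS3 (-2.92). Higher in C5 were MS4A1 (6.46 ± 0.51, adjusted p = 0.000522), ITIH5 (4.88), LINC00504 (4.36), FRMPD4 (3.66), IFIT5 (3.21), IFIT3 (2.72), MYO5B (2.63), CTD-2576D5.4 (2.55), TRIM44 (2.04), IGKV3D-7 (2.02) and PTGER4 (2.00). Adjusted p-values over these genes ran from 1.50e-06 for CD38 to 0.0108 for CTD-2576D5.4. Both C5 libraries lay on one side of all 4 libraries of B5 and C1 for each. For genes named by their difference from B5 and C1, CD38 and AMPD1 among them, that separation was a condition of naming. Neither it nor the size of the difference is separate support for those genes. TRIM44 and SPNS3 fell in all 3 clones, TRIM44 less in C5 and SPNS3 more. MYO5B rose in C5 and fell in B5 (log2 -0.72 ± 0.15, adjusted p = 0.0112) and C1 (log2 -0.73 ± 0.15, adjusted p = 0.00927). SLC2A5 rose in C5 by log2 4.55 and in B5 and C1 by 9.18 and 7.31.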

How the results depend on the processing

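Against parental, leaving out 1 library gave 541 to 618 genes higher and 441 to 602 lower (1464 and 1308 with all). The lower count was 2176 with the 4 libraries alone and 2222 without clone B5, a fit added after the data were seen because the B5 libraries differ most from each other; the higher counts were 2139 and 2193. DESeq2 called 1469 higher and 1429 lower, limma 1457 and 1279. Against B5 and C1, leaving out 1 library gave 19 to 1611 higher and 22 to 1471 lower (328 and 294 with all). There, the 6 clone libraries alone gave 197 and 186, DESeq2 470 and 534, and library sizes without TMM 342 and 175; without TMM 66.2% of those called were higher rather than 52.7%, and the median of all genes moved to 0.10.

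The replicate block gave 1749 higher and 1652 lower against parental, 538 and 511 against the clones, and 14 rather than 9 plasma cell genes lower than in the clones. Correlations between same-numbered libraries ran from 0.06 to 0.44, so the numbers were not taken as pairs.

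Leave-one-out ranges were, against parental, 17 to 24 for lower ER genes, 8 to 9 for lower plasma cell genes, 6 to 8 for lower immunoglobulin genes, 3 to 4 for higher S phase genes, 1 to 2 for G2/M, 0 to 7 for histones, 22 to 53 for genes near off and 16 to 34 for genes near on. Against the clones they were 1 to 18 for interferon genes, 1 to 15 for lower plasma cell genes and 0 to 17 for class II genes. The 4 libraries alone gave 23 S phase and 20 histone genes higher, and the fit without B5 gave 24 and 17. The causes were not tested. The median for chromosome X was 0.60 without TMM and 0.54 to 0.58 with 1 library left out; chromosome 11 had -0.31 and -0.41 to -0.33, and chromosome 4 had -0.25 without TMM.

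None of the named calls changed sign. Of values that were not called, sign changed for CRBN (-0.0004 with the 4 libraries alone, -0.0083 with DESeq2, -0.10 to 0.12 with 1 library left out), MCL1 (0.0315 without TMM), FAM200B (0.0223 without TMM, -0.13 to 0.045), RFXANK (0.0243 without TMM, -0.14 to 0.0591), BCL2L2 (-0.0906 to 0.16), BBC3 (-0.29 to 0.0537), CD79B (-0.0402 to 0.23) and GPR15 (-0.95 to 0.0171), all against parental. Of 36 named calls against B5 and C1, 17 held with any 1 library left out and 19 did not, those with adjusted p-values from 0.00184 up. Depth limits C5 values under 0.101 to 0.120 CPM, the level of 3 counts.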
